A study of Solanum lycopersicum with 48 samples.

Results

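The genes described here are 724 of the 1893 newly assembled genes in an RNA sequencing study of tomato, which listed 29898 genes in all. They are transcribed regions that the authors' assembly placed outside the annotated tomato loci, and they carry only a running number (newGene_ and a digit string), a chromosome, a strand, a start and an end. A newly assembled gene was kept when it reached at least 1 FPKM (fragments per kilobase, normalised to the mapped fragments of a library) in at least 3 of the 48 libraries. The members were thus chosen by their measured FPKM, and the 1169 newly assembled genes below that limit are not described further except as a background for position and span. Nearest to the limit on the inside were newGene_1934 and newGene_3845, and nearest on the outside were newGene_1832, for which the third highest value was 0.999 FPKM, and newGene_7633, for which it was 0.996 FPKM.

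The plants belonged to the cultivars Guizhen No.1 and Guozhen No.1. They were raised in hydroponic culture with 1 mM (low) or 9 mM (normal, labelled as the control) nitrogen in Hoagland solution and sampled as root or leaf at 7 days or 1 day. With 3 libraries a group, the 16 groups give 48 libraries. The labels name no transgene or mutation, do not define the start of the day count, and do not tell whether replicates were separate plants. P-values thus measure the spread between these libraries, which may be technical.

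A genome annotation is built on 1 reference variety and on the tissues sampled for it. Assembling transcripts from the reads of a new experiment adds regions that the annotation lacks, among them protein-coding genes that were missed, long noncoding RNAs, antisense transcripts, transcribed transposons, and extensions or fragments of known genes. Which of these a given newly assembled gene belongs to was not tested, because the files give neither sequence nor coding potential, and so no member is given a function here.

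The organ labels were checked with 3 loci of the Rubisco small subunit, an enzyme part of photosynthetic cells. Their summed level was 9.43 to 68.8 FPKM in the 24 root libraries and 3697 to 78118 FPKM in the 24 leaf libraries. A nitrate transporter locus chosen as a root check, Solyc11g069750, had 0 to 11.4 FPKM (median 2.08) in root and 0 in every leaf library. An ammonium transporter locus chosen likewise, Solyc09g090730, did not separate the organs. It had 33.6 to 370 FPKM (median 86.9) in root and 5.27 to 233 FPKM (median 73.9) in leaf. Sequencing depth was not given, and column sums of FPKM do not show it. Members made up a small part of the measured RNA, between 0.51% and 0.965% of a library's summed FPKM, and 295 to 411 of them reached 1 FPKM in a given library.

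Members lay on all 12 chromosomes and on the unplaced sequence that the table calls chromosome 0, with 12 on chromosome 0, 45 on chromosome 2 and 76 on chromosome 1. The genome build behind the coordinates was not given in the sources used here. Of the 712 members on chromosomes 1 to 12, 32.9% lay in the outermost 2 of 10 equal bins along their chromosome (1 at each end), against 24.9% of the other newly assembled genes. The middle 4 bins held 28.9% of members and 31.7% of the others. Members near the ends were also shorter, with a median span of 3048 bases in the first bin and 3043 bases in the last, against 5688.5 and 5671 bases in bins 4 and 5. These shares describe position on a chromosome only, and neighbouring members that come from 1 transcribed stretch are counted separately in them.

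**Figure D1:**
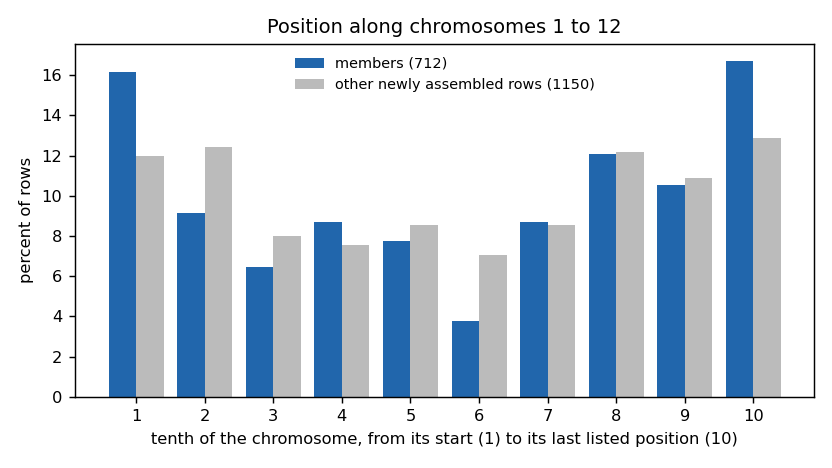
Percent of the 712 members (blue) and of the other newly assembled genes (grey) on chromosomes 1 to 12 that lie in each of 10 equal bins of their chromosome, from its start to its last listed position. Both end bins hold a larger percent of members than of the others (32.9% against 24.9% for the pair), and bin 6 holds the smallest percent of members.

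Spans ran from 449 to 2196125 bases with a median of 3924.5, against a median of 2345 bases for the newly assembled genes under the limit. The length column equals end minus start in all 1893 newly assembled genes, so it holds the genomic span with any introns, and the exon length used for FPKM is not known. The 3 shortest members were newGene_10195 (chromosome 9, 60869608 to 60870057, 449 bases), newGene_9480 (chromosome 9, 463 bases) and newGene_2468 (chromosome 0, 8842675 to 8843184, 509 bases). Of these, newGene_2468 was the steadiest, with at least 1 FPKM in all 48 libraries, whereas newGene_10195 reached 1 FPKM in 8.

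The longest, newGene_6016, covers chromosome 5 from 53941806 to 56137931, and 5 other newly assembled genes lie inside its span, 1 of them a member (newGene_6029). It had 2.01 to 8.53 FPKM in root and 1.45 to 10.1 FPKM in leaf, and it was called in neither the organ comparison (log2 difference 0.11 ± 0.13, adjusted p = 0.422 in limma) nor the cultivar comparisons (adjusted p = 0.971 in root and 0.193 in leaf). The next longest, newGene_3989 (chromosome 1, 37584070 to 37842821) and newGene_223 (chromosome 11, 17848998 to 18095079), were root genes of day 7. At normal nitrogen, newGene_3989 had 12.1, 10.2 and 9.15 FPKM in Guizhen roots of day 7, against 0.197, 0.177 and 0.0889 FPKM in Guizhen roots of day 1. Likewise newGene_223 had 8.88, 9.88 and 7.05 FPKM in those roots at day 7, against 0.053, 0.0103 and 0.0625 FPKM at day 1. Neither pair of groups overlapped.

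Most members were weakly expressed. Their mean over the 48 libraries had a median of 1.13 FPKM, against 10.2 FPKM for the 21393 annotated loci that meet the same limit, and 76 members (10.5%) averaged at least 10 FPKM, against 50.7% of those loci. Only 120 members (16.6%) reached 1 FPKM in all 48 libraries, against 60.4% of the annotated loci, and 151 reached it in just 3 to 6 libraries. A member of the last kind could enter only through the groups in which it is high.

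A few members were among the strong transcripts. The 5 highest were newGene_8196 (chromosome 8, 1496827 to 1500132, minus strand; mean 505 FPKM), newGene_7283 (chromosome 7, 6495456 to 6498374, minus strand; 264 FPKM), newGene_2576 (chromosome 2, 45548215 to 45550498, plus strand; 247 FPKM), newGene_7080 (chromosome 6, 44613692 to 44623082, minus strand; 235 FPKM) and newGene_9481 (chromosome 9, 12593697 to 12594901, plus strand; 163 FPKM). Among these, newGene_2576 stood out for its evenness between organs, with 101 to 412 FPKM in root and 110 to 454 FPKM in leaf. The groups overlapped, and the log2 difference of root minus leaf was 0.02 ± 0.06 (adjusted p = 0.779 in limma).

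Organ gave the largest share of calls, in the comparison with the most libraries. The members' median absolute log2 difference was 0.469 between organs. Between the days at normal nitrogen it was 0.419 in leaf and 0.391 in root. In the comparison of root with leaf over all 48 libraries, 570 of the 724 members (78.7%) were called by limma at an adjusted p below 0.05, fewer than the 87.4% of all tested genes. Of these, 347 were higher in root (background 59.3% of all tested genes) and 223 lower (28.1%). Scaling the libraries by the median of ratios moved the median of all genes by -0.262 on the log2 scale, and the split then was 290 higher against 276 lower. Among the 251 members that averaged at least 1 FPKM in both organs, 186 (74.1%) were called, against 87% of annotated loci of that kind. In these bulk organs, fewer cells of a type and less RNA per cell cannot be told apart.

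The members named for a comparison were picked among called members whose sides do not overlap, so the lack of overlap describes them and supports nothing. The leaf-high end was led by newGene_9481 and newGene_8196. For newGene_9481, root libraries had 0 to 3.78 FPKM (median 0.27), against 142 to 501 FPKM (median 284) in leaf libraries. For newGene_8196, root libraries had 0.45 to 13.5 FPKM (median 3.998), against 81.7 to 2761 FPKM (median 890) in leaf libraries. Root and leaf did not overlap in either, with log2 differences of -7.52 ± 0.10 (adjusted p = 4.59e-38) and -6.89 ± 0.14 (adjusted p = 5.39e-33). The root-high end was led by newGene_7283, with 102 to 1374 FPKM (median 469.5) in root and 0.583 to 6.95 FPKM (median 1.69) in leaf. It was followed by newGene_7218 (chromosome 7, 4489362 to 4492207), with 11.3 to 529 FPKM (median 104) in root and 0 to 2.07 FPKM (median 0) in leaf. These groups were again apart, with a log2 difference of 7.28 ± 0.14 (adjusted p = 9.22e-34) for newGene_7283. A member that reaches 1 FPKM almost only on 1 side, as newGene_7218 does, became a member and passed the filter through that side, so for such members the values of the organ, day and cultivar comparisons are given without a p.

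Some members were read in 1 organ alone. With at least 1 FPKM in 3 libraries of an organ and below 0.1 FPKM in every library of the other, 62 members (8.56%) were seen in root only and 28 (3.87%) in leaf only. The same rule took 1.96% and 1.15% of the 21393 annotated loci, which are more strongly expressed. Both member counts depend on the limit and are given without a test: they are 37 and 21 at a limit of 0.05 FPKM, and 121 and 74 at 0.5 FPKM. The highest of the leaf class was newGene_6594 (chromosome 6, 23828867 to 23830083), listed at 0 in all 24 roots and at 5.24 to 149 FPKM in leaf. After it came newGene_6205 (chromosome 5, 64083317 to 64085084), with at most 0.0965 FPKM in root and 2.54 to 69.9 FPKM in leaf. In the root class, newGene_10305 (chromosome 0, 13390665 to 13395769) had 11.3 to 137 FPKM in root and at most 0.0819 FPKM in leaf. The next, newGene_9262 (chromosome 9, 2298514 to 2301408), had 4.04 to 30.2 FPKM in root and at most 0.0751 FPKM in leaf. All 4 reached 1 FPKM in every library of their organ. They are the strong end of their classes. The median within the organ reached 1 FPKM in just 17 of the 62 root members and 10 of the 28 leaf members.

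**Figure D2:**
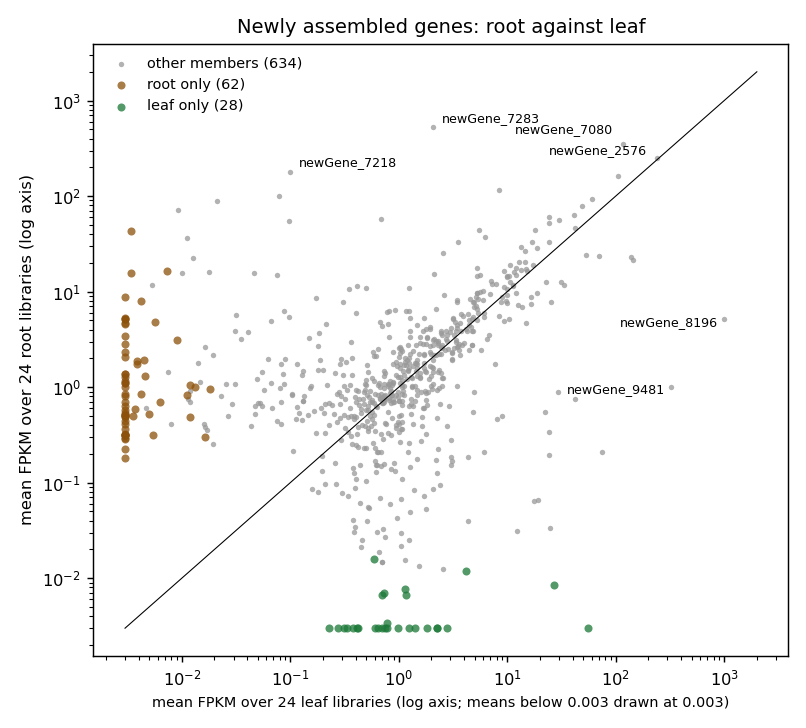
Mean FPKM of each of the 724 members over the 24 root libraries (vertical, log axis) and over the 24 leaf libraries (horizontal, log axis), with means below 0.003 drawn at 0.003; the line marks equal means. Brown points are the 62 members seen in root only and green points the 28 seen in leaf only, newGene_7283 and newGene_7218 lie far above the line, newGene_8196 and newGene_9481 far below it, and newGene_2576 on it.

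Day 7 and day 1 were compared at normal nitrogen, with both cultivars averaged. In root, 272 of the 564 members tested (48.2%) were called, against 60.3% of all genes tested there, 166 of them higher at day 7 (background 28.4%) and 106 lower (32%). In leaf, 283 of 512 members tested (55.3%) were called, against 71.4%, and here 107 were higher at day 7 (background 19.6%) and 176 lower (51.8%). Scaling moved the leaf median of all genes by 0.327 and turned that split round, to 151 higher and 111 lower. Of the 368 members tested in both organs, 90 were called in both, which is 61.2% of the 147 root calls and 45.5% of the 198 leaf calls, and 30 of the 90 had opposite directions in root and leaf. For annotated loci the shares were 75.9% and 62.7%, with opposite directions in 44.2% of the shared calls.

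A pair of neighbours on chromosome 7 showed opposite changes between the days. In roots, newGene_7218 had 274 to 412 FPKM at day 7 (median 326) and 18.8 to 40.6 FPKM at day 1 (median 28.3), over 6 normal nitrogen libraries each. In the same libraries newGene_7214 (chromosome 7, 4465816 to 4467613), upstream on the same strand, had 0.623 to 2.49 FPKM at day 7 (median 1.03) and 28.2 to 75.8 FPKM at day 1 (median 52.8). No library of 1 day overlapped the other day in either gene, and the log2 differences were 3.53 ± 0.25 (adjusted p = 1.12e-09) and -4.52 ± 0.24 (adjusted p = 2.06e-11). Equally separate was newGene_93 (chromosome 11, 9484502 to 9494813), listed at 0 in all 6 of these day 7 roots and at 21.6 to 183 FPKM at day 1 (median 85.5). In this comparison only the day 1 side reached 1 FPKM, so no p is given. Over all 48 libraries it reached 1 FPKM in 21.

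In leaves, newGene_8196 had 1425 to 1780 FPKM at day 7 (median 1619) and 178 to 350 FPKM at day 1 (median 277), a log2 difference of 2.59 ± 0.26 (adjusted p = 3.33e-08). The leaf-only newGene_6594 had 84.2 to 149 FPKM at day 7 (median 116) and 6.16 to 52.6 FPKM at day 1 (median 20.2), a log2 difference of 2.48 ± 0.42 (adjusted p = 2.53e-05). Both rose, with no overlap between the days. Lower at day 7 were newGene_8127 (chromosome 7, 61628881 to 61630181), with 1.31 to 2.21 FPKM at day 7 and 31.8 to 59.4 FPKM at day 1, and newGene_7080, with 8.65 to 24.3 FPKM at day 7 and 91.4 to 298 FPKM at day 1. Their log2 differences were -4.01 ± 0.23 (adjusted p = 3.26e-11) and -3.15 ± 0.26 (adjusted p = 2.54e-09), again without overlap. The fall of newGene_7080 in root was smaller, with a log2 difference of -1.04 ± 0.16 (adjusted p = 1.73e-05), and the difference between organs was not tested.

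Between Guizhen and Guozhen, members were called more often than the background in both organs. In root, 87 of 564 members (15.4%) were called, against 7.88% of all genes, 40 of them higher in Guizhen (background 4.13%) and 47 lower (3.75%). In leaf, 103 of 512 (20.1%) were called, against 9.99%, with 53 higher (4.24%) and 50 lower (5.75%). Of the 56 and 69 calls among members tested in both organs, 42 were shared (75% of the root calls and 60.9% of the leaf calls), and each of the 42 had the same direction in root and leaf. Among annotated loci tested in both organs, 31.3% of the root calls and 25.3% of the leaf calls were shared, 8.79% of them with opposite directions.

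Weak and strong members were read apart, since members are weaker than annotated loci. At a mean of at least 5 FPKM, 8.7% of 138 members and 7.36% of annotated loci were called in root, and 16.7% of 102 members and 8.21% of annotated loci in leaf. Below 1 FPKM the shares were 19.9% of 186 members and 9.83% of annotated loci in root, and 26.1% of 165 and 13.5% in leaf. By side, members that averaged 1 FPKM in just 1 cultivar were called most often: 39% were called in root and 51.7% in leaf, against 27.1% and 33.8% of annotated loci of that kind. A member of that kind could pass the limit through 1 cultivar alone. Of members that averaged below 1 FPKM in both, 16% of 150 were called in root and 17.5% of 126 in leaf, against 6.43% and 8.76% of annotated loci. Among members with a mean of 1 FPKM in both cultivars, 9.34% of 332 were called in root, against 7.11% of annotated loci, and 12% of 299 in leaf, against 8.87%.

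**Figure D3:**
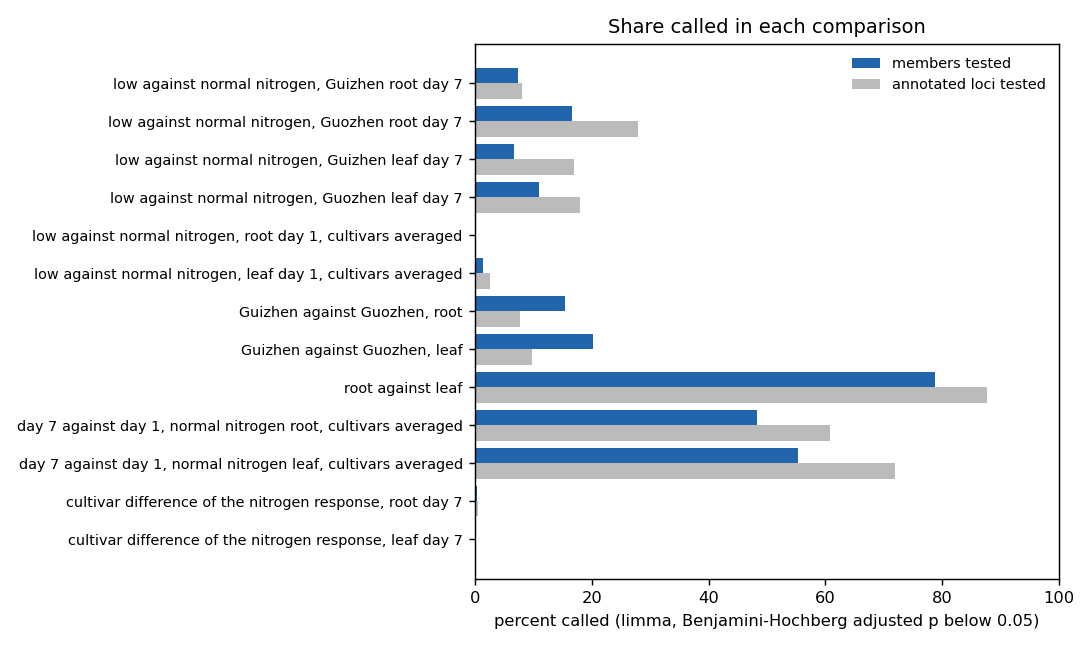
Percent of tested members (blue) and of tested annotated loci (grey) called by limma at an adjusted p below 0.05 in each of the 13 comparisons. Members exceed annotated loci in the comparisons of Guizhen with Guozhen (15.4% against 7.66% in root and 20.1% against 9.72% in leaf), and, with 1 call, in root at day 1.

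Several members were read in 1 cultivar alone, 10 in Guizhen (1.38%) and 13 in Guozhen (1.8%), by the same limit of 0.1 FPKM, against 0.0608% and 0.0982% of annotated loci. These counts were 9 and 8 at a limit of 0.05 FPKM, and 23 and 22 at 0.5 FPKM. Within the cultivar, the median reached 1 FPKM in just 1 of the 10 Guizhen members and 3 of the 13 Guozhen members. The class itself fixes the difference between the cultivars, so its members are described without a test. The clearest was newGene_8392 (chromosome 8, 14588210 to 14593149), listed at 0 in all 24 Guizhen libraries and at 1.15 to 31.7 FPKM in all 24 Guozhen libraries. Of similar constancy was newGene_4353 (chromosome 4, 20656160 to 20670187), named after its values were seen, with at most 0.0144 FPKM in Guizhen and 0.861 to 2.77 FPKM in Guozhen. A more root-centred case was newGene_6235 (chromosome 6, 2529570 to 2535369), with at most 0.0988 FPKM in Guizhen roots and 0.028 to 13.7 FPKM in Guozhen roots, and at most 0.0236 FPKM in Guizhen leaves and 0.0565 to 1.58 FPKM in Guozhen leaves. None of the 3 gives a usable fold, since most Guizhen values are 0.

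On the Guizhen side the class was weaker. The steadiest, newGene_9652 (chromosome 9, 22288717 to 22292106), had 0.471 to 2.43 FPKM in all Guizhen libraries and at most 0.0215 FPKM in Guozhen. The next, newGene_4754 (chromosome 4, 48111958 to 48113416), had 0 to 2.64 FPKM in Guizhen, where all 6 normal nitrogen libraries of day 1 were at 0, and was listed at 0 in all 24 Guozhen libraries.

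Quantitative differences were found in strong members too. In roots, newGene_9984 (chromosome 9, 50294405 to 50320343) had 5.92 to 7.93 FPKM in Guizhen and 2.64 to 3.50 FPKM in Guozhen (12 libraries each). Nearby in size of effect, newGene_9541 (chromosome 9, 15159442 to 15161543) had 14.8 to 24.9 FPKM in Guizhen and 5.51 to 13.1 FPKM in Guozhen roots. The cultivars did not overlap in root, with log2 differences of 0.96 ± 0.06 (adjusted p = 9.81e-10) and 0.91 ± 0.07 (adjusted p = 1.89e-08), and in leaf the differences were 0.77 ± 0.08 (adjusted p = 2.79e-06) and 0.87 ± 0.09 (adjusted p = 2.23e-06), with some overlap. In the other direction, newGene_7913 (chromosome 7, 52784333 to 52791400) had 0 to 0.767 FPKM in Guizhen roots, against 6.19 to 40.0 FPKM in Guozhen roots. Its leaves had 0 to 0.0895 FPKM in Guizhen, against 3.44 to 19.7 FPKM in Guozhen. It passed the filter through Guozhen alone.

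**Figure D4:**
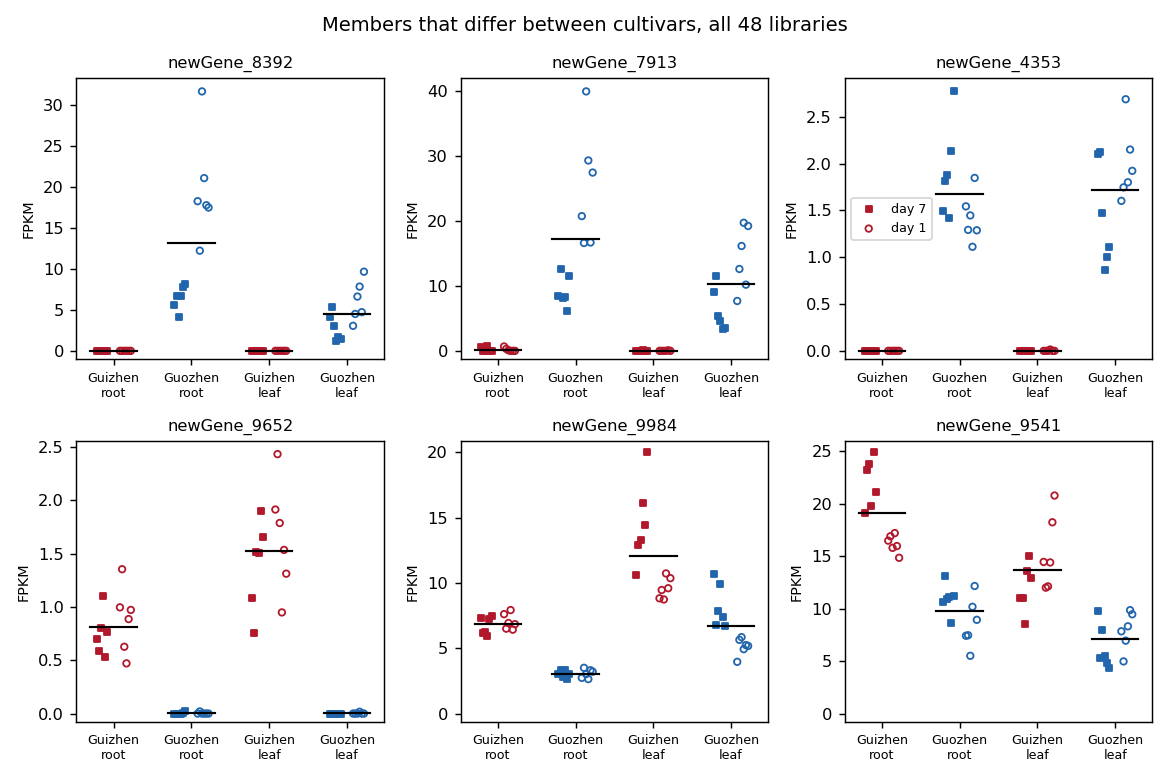
FPKM of newGene_8392, newGene_7913, newGene_4353, newGene_9652, newGene_9984 and newGene_9541 in all 48 libraries, by cultivar and organ (Guizhen red, Guozhen blue; filled squares day 7, open circles day 1; lines are means of 12 libraries, low and normal nitrogen together). newGene_8392, newGene_7913 and newGene_4353 sit at or near 0 in Guizhen and newGene_9652 at or near 0 in Guozhen, while newGene_9984 and newGene_9541 are expressed in both.

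Members that differed between cultivars were not spread evenly. Over both organs 148 of 708 tested members (20.9%) were called in root or leaf, against 14% of annotated loci counted in the same way. On chromosome 9 it was 26 of 51 (51%), 20 of them higher in Guizhen, and annotated loci were also called most often on that chromosome (28%, against 10.6% to 15.4% on the others). Within it, 5 of the 7 members tested between 20 and 25 Mb were called, each higher in Guizhen. On chromosome 3 the count was 18 of 59 (30.5%, annotated 14%), of which 12 were lower in Guizhen, and in the first 5 Mb of chromosome 6 the 4 called of 11 tested were each lower in Guizhen. Regions of a chromosome were looked at after the cultivar calls were known, so these counts describe where the calls lie.

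One of the densest stretches of members lay among them. On chromosome 3, 1 stretch of 100 kb held newGene_3501 to newGene_3504, which overlap each other between 47161102 and 47166017. In root, none of the 4 reached 1 FPKM in a Guizhen library, so each passed the filter through Guozhen alone. For newGene_3503, Guizhen roots had at most 0.143 FPKM, and the lowest Guozhen root had 0.841 FPKM. They share most of their span, so they are not 4 independent observations. An equally dense stretch on chromosome 1 held newGene_3976, newGene_3983, newGene_3987 and newGene_3989, of which newGene_3976 was higher in leaf (0 to 0.383 FPKM in root, against 0.658 to 4.42 FPKM in leaf) and the other 3 were higher in root.

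Members responded to low nitrogen at day 7 in all 4 combinations of cultivar and organ, at shares near the background in Guizhen roots and below it in the other 3. The shares differed by mean level. Below 1 FPKM, 7.53% of members and 4.71% of annotated loci were called in Guizhen roots, and 15.1% and 17% in Guozhen roots. In leaves of that level it was 4.24% and 5.45% in Guizhen, and 9.7% and 7.24% in Guozhen. At 5 FPKM or more it was 8.7% and 9.19% in Guizhen roots, and 21% and 31.7% in Guozhen roots. Leaves then had 9.8% and 20.2% in Guizhen, and 16.7% and 20.7% in Guozhen. In Guizhen roots of day 7, 41 of 564 members (7.27%) were called, near the 7.92% of all genes, 14 of them higher at low nitrogen (background 4.43%) and 27 lower (3.49%). In Guozhen roots of day 7 it was 93 (16.5%, against 27.6%), with 48 higher (12.8%) and 45 lower (14.8%). The called members of the 2 cultivars shared 14 (34.1% of the Guizhen and 15.1% of the Guozhen calls), 6 higher and 8 lower in both and none in opposite directions. For annotated loci the shares were 67.5% and 19.2%. The Guizhen count depends on single libraries, falling to 10 when low nitrogen replicate 1 was left out, 15 for low nitrogen replicate 2, 13 for normal nitrogen replicate 2 and 24 for normal nitrogen replicate 3.

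The strongest response was that of newGene_6521 (chromosome 6, 21467461 to 21471607), a root gene of day 7. In Guizhen roots of day 7 it had 0.277, 0.0508 and 5.11 FPKM at low nitrogen, against 13.5, 19.7 and 19.7 FPKM at normal nitrogen. In Guozhen roots of day 7 it had 2.47, 0.339 and 0.358 FPKM at low nitrogen, against 13.6, 22.4 and 19.5 FPKM at normal nitrogen. Every low nitrogen library lay below every normal nitrogen library in both cultivars, although Guizhen replicate 3 at 5.11 FPKM stood above its fellows. The log2 difference was -3.19 ± 0.48 in Guizhen (adjusted p = 0.000718) and -3.37 ± 0.48 in Guozhen (adjusted p = 8.55e-05). A fit on the 6 libraries of the Guizhen comparison alone gave an adjusted p of 0.109. Only Guizhen replicate 3 and Guozhen replicate 1 reached 1 FPKM at low nitrogen. The gene thus passed the filter through normal nitrogen, where it is high, and its p-values describe those libraries and support nothing. At day 1 the gene was at 1.24 FPKM or below in every root, so its high level is that of day 7 roots at normal nitrogen.

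A second member that fell was newGene_1468 (chromosome 12, 45748871 to 45761009), with 2.26, 1.80 and 0.0303 FPKM at low nitrogen in Guozhen roots of day 7, against 12.7, 4.08 and 8.67 FPKM at normal nitrogen. The groups did not overlap (log2 difference -2.05 ± 0.44, adjusted p = 0.00233). Its Guizhen roots had 0.0796, 1.85 and 3.37 FPKM at low nitrogen, against 4.78, 5.86 and 10.3 FPKM at normal nitrogen, without overlap. In Guizhen roots newGene_3448 (chromosome 3, 45465826 to 45467366) had 2.96, 2.58 and 10.8 FPKM at low nitrogen, against 13.3, 15.5 and 24.2 FPKM at normal nitrogen. These groups were apart too, but replicate 3 at low nitrogen came close, and the log2 difference of -1.72 ± 0.43 (adjusted p = 0.0197) was no longer called without low nitrogen replicate 1 (adjusted p = 0.116) or 2 (0.128), without normal nitrogen replicate 2 (0.0566) or 3 (0.0891), or with the 6 libraries alone (0.144). Its Guozhen roots had 13.4, 10.1 and 5.25 FPKM at low nitrogen, against 7.38, 11.96 and 15.1 FPKM at normal nitrogen, which overlapped and were not called (log2 difference -0.27 ± 0.43, adjusted p = 0.689).

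Among the members that rose in root, newGene_4920 (chromosome 4, 56178956 to 56180340) had 26.6, 14.5 and 20.5 FPKM at low nitrogen in Guizhen roots of day 7, against 2.75, 1.91 and 3.47 FPKM at normal nitrogen. Its Guozhen roots had 5.89, 12.6 and 21.0 FPKM at low nitrogen, against 7.42, 2.42 and 3.82 FPKM at normal nitrogen. Groups were apart in Guizhen and overlapped in Guozhen. The log2 difference was 2.52 ± 0.41 in Guizhen (adjusted p = 0.00135) and 1.30 ± 0.41 in Guozhen (adjusted p = 0.0232), and the difference between the cultivars was 1.22 ± 0.58 (adjusted p = 0.284).

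In Guozhen roots the largest rises were those of newGene_11480 (chromosome 10, 61798179 to 61800349) and newGene_2872 (chromosome 3, 10041712 to 10043206). For newGene_11480, low nitrogen gave 65.1, 43.0 and 80.3 FPKM, against 14.7, 19.9 and 12.1 FPKM at normal nitrogen (log2 difference 1.92 ± 0.44, adjusted p = 0.0034). For newGene_2872, low nitrogen gave 54.8, 56.4 and 43.6 FPKM, against 12.8, 12.8 and 13.4 FPKM at normal nitrogen (log2 difference 1.90 ± 0.36, adjusted p = 0.000912). Neither overlapped. In Guizhen roots newGene_2872 also rose, with 35.0, 40.5 and 17.6 FPKM at low nitrogen and 10.7, 11.2 and 7.52 FPKM at normal nitrogen (log2 difference 1.51 ± 0.36, adjusted p = 0.0153). For newGene_11480 the Guizhen values were 15.97, 25.5 and 32.6 FPKM at low nitrogen and 15.99, 15.6 and 15.2 FPKM at normal nitrogen, which overlapped by 1 library, and the log2 difference of 0.57 ± 0.44 was not called (adjusted p = 0.48). Its difference between the cultivars was not called either (-1.35 ± 0.62, adjusted p = 0.266).

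The strongest root member, newGene_7283, had 1374, 1015 and 800 FPKM at low nitrogen in Guozhen roots of day 7, against 680, 237 and 300.4 FPKM at normal nitrogen. Its Guizhen roots of day 7 had 983, 824 and 863 FPKM at low nitrogen, against 321, 363 and 509 FPKM at normal nitrogen. The low nitrogen libraries of day 7 lay above the normal nitrogen ones in both cultivars. At day 1 the order was the opposite in Guizhen roots, with 258, 102 and 204 FPKM at low nitrogen against 520, 564 and 489 FPKM at normal nitrogen; with the cultivars averaged, day 1 was not called (log2 difference -0.55 ± 0.28, adjusted p = 0.979). The rise was called in Guozhen (log2 difference 1.51 ± 0.39, adjusted p = 0.00816) and missed the threshold in Guizhen (1.18 ± 0.39, adjusted p = 0.0713), with a difference between cultivars of -0.32 ± 0.55 (adjusted p = 0.819). Inside its span, on the other strand, newGene_7284 had 5.51, 2.003 and 7.53 FPKM at low nitrogen in Guizhen roots of day 7, against 0.942, 0.950 and 0 FPKM at normal nitrogen. Those groups were apart (log2 difference 1.82 ± 0.47, adjusted p = 0.022), but the call ended without low nitrogen replicate 1 (adjusted p = 0.103) or 3 (0.0548), without normal nitrogen replicate 3 (0.103), at a pseudocount of 0.1 (0.136), and with the 6 libraries alone (0.128). At normal nitrogen newGene_7284 reached 1 FPKM in a single library (2.57 FPKM, a Guozhen root of day 7). It passed the filter through low nitrogen, where it is high, so its p describes those libraries and supports nothing.

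**Figure D5:**
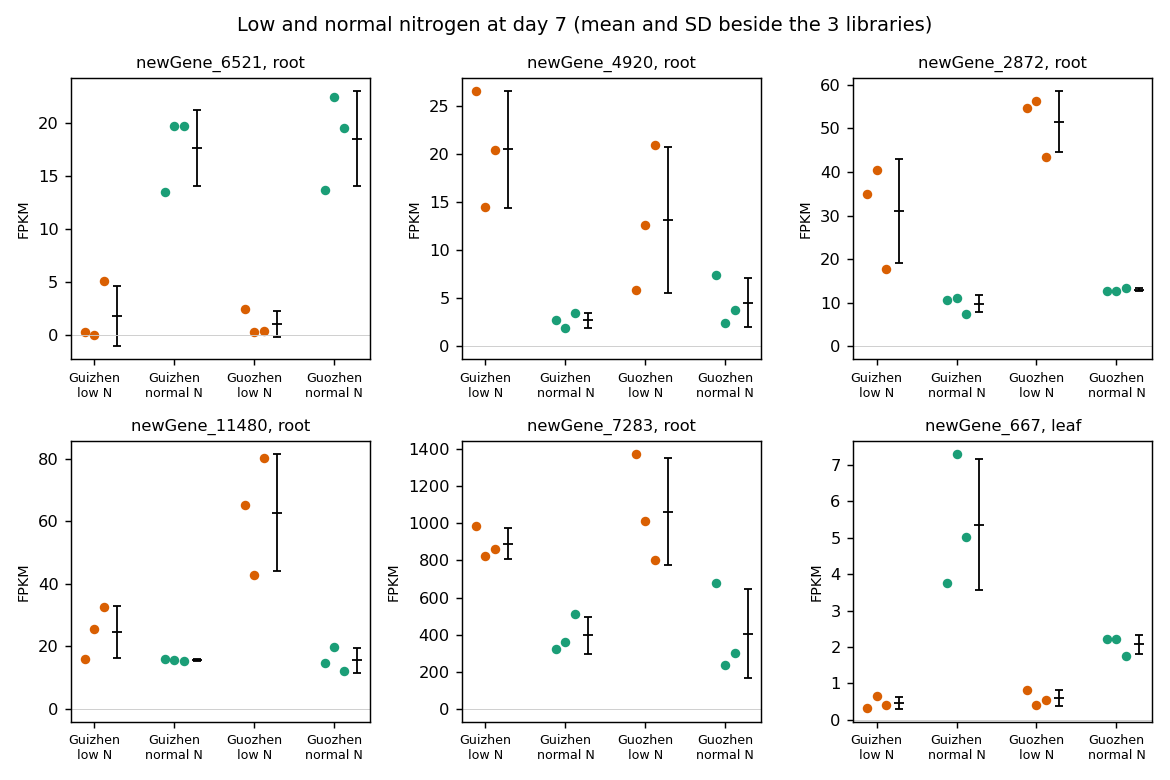
FPKM of newGene_6521, newGene_4920, newGene_2872, newGene_11480 and newGene_7283 in roots and of newGene_667 in leaves at day 7 (orange low nitrogen, green normal nitrogen; 3 libraries each, with their mean and SD beside them). newGene_6521 and newGene_667 are lower at low nitrogen in both cultivars without overlap, and newGene_2872 and newGene_7283 are higher in both without overlap.

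In leaves of day 7, low nitrogen changed 34 of 512 members in Guizhen (6.64%, against 16.6% of all genes) and 56 in Guozhen (10.9%, against 17.7%). Calls in Guizhen were 22 higher (background 11.7%) and 12 lower (4.92%), and those in Guozhen 51 higher (12.3%) and 5 lower (5.47%). Scaling moved the median of all genes by -0.13 in Guizhen and -0.127 in Guozhen, and the splits then were 12 to 18 in Guizhen and 27 to 10 in Guozhen (higher to lower). Leaving out a library lowered the Guizhen count to 11 (low nitrogen replicate 1), 8 (low nitrogen replicate 2), 12, 21 or 13 (normal nitrogen replicates 1, 2 and 3). It lowered the Guozhen count to 16 (low nitrogen replicate 2), 37 (low nitrogen replicate 3), 30 or 34 (normal nitrogen replicates 2 and 3). The cultivars shared 12 called members (35.3% of the Guizhen and 21.4% of the Guozhen calls), 10 of them higher and 2 lower in both, against shares of 49.9% and 46.9% for annotated loci.

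The most marked of these was newGene_667 (chromosome 12, 537859 to 539202). In Guizhen leaves of day 7 it had 0.332, 0.641 and 0.399 FPKM at low nitrogen, against 3.75, 7.31 and 5.01 FPKM at normal nitrogen (log2 difference -2.09 ± 0.21, adjusted p = 4.2e-05). In Guozhen leaves of day 7 it had 0.821, 0.392 and 0.555 FPKM at low nitrogen, against 2.22, 2.23 and 1.76 FPKM at normal nitrogen (log2 difference -0.96 ± 0.21, adjusted p = 0.00573). It fell in both without overlap, and the cultivar difference of -1.14 ± 0.30 was not called (adjusted p = 0.609). Among leaves, the gene reached 1 FPKM only at normal nitrogen and day 7, the side where it is high. It passed the leaf filter through those libraries, so its leaf p-values describe them and support nothing. In Guozhen roots of day 7 the same gene went the other way, with 27.7, 16.4 and 12.4 FPKM at low nitrogen, against 8.74, 5.01 and 5.26 FPKM at normal nitrogen (log2 difference 1.40 ± 0.36, adjusted p = 0.00803). In Guizhen roots it had 7.71, 11.8 and 8.82 FPKM at low nitrogen, against 16.7, 11.1 and 7.03 FPKM at normal nitrogen, and was not called (log2 difference -0.22 ± 0.36, adjusted p = 0.791). The groups there overlapped.

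Other members moved less in leaf. In Guizhen, newGene_8065 (chromosome 7, 59271370 to 59276971) had 46.4, 51.0 and 32.1 FPKM at low nitrogen, against 24.6, 17.9 and 16.2 FPKM at normal nitrogen (log2 difference 1.10 ± 0.20, adjusted p = 0.00556). Its libraries were apart, and the difference held without each library in turn. Guozhen leaves of day 7 had 27.3, 46.5 and 37.6 FPKM at low nitrogen, against 17.3, 20.9 and 21.3 FPKM at normal nitrogen, without overlap. In roots of day 7 this gene was lower at low nitrogen, with 64.8, 71.4 and 78.2 FPKM against 98.3, 103 and 89.9 FPKM at normal nitrogen in Guizhen, again without overlap (log2 difference -0.44 ± 0.11, adjusted p = 0.0157). The Guozhen roots fell too (log2 difference -0.55 ± 0.11, adjusted p = 0.00106). By contrast newGene_9846 (chromosome 9, 43487515 to 43495066), with 13.6, 14.6 and 13.4 FPKM at low nitrogen against 8.37, 7.61 and 7.60 FPKM at normal nitrogen (log2 difference 0.75 ± 0.17, adjusted p = 0.00999), was no longer called without low nitrogen replicate 2 (adjusted p = 0.0508). The fall of newGene_5243 (chromosome 5, 8069367 to 8074644), with 3.23, 4.25 and 5.54 FPKM at low nitrogen against 9.04, 6.83 and 11.8 FPKM at normal nitrogen (log2 difference -0.93 ± 0.22, adjusted p = 0.0123), ended without low nitrogen replicate 1 (0.0689) or 2 (0.0517), without normal nitrogen replicate 3 (0.0575), and with the 6 libraries alone (0.0526). In Guozhen leaves of day 7, low and normal nitrogen overlapped for newGene_9846 and for newGene_5243.

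In Guozhen leaves, newGene_2461 (chromosome 2, 38561196 to 38567499) had 7.10, 4.46 and 4.30 FPKM at low nitrogen, against 11.3, 11.8 and 8.98 FPKM at normal nitrogen (log2 difference -0.91 ± 0.16, adjusted p = 0.00191; adjusted p = 0.0565 with the 6 libraries alone). Next to it in size, newGene_8144 (chromosome 7, 64353317 to 64359324) had 6.63, 9.54 and 7.24 FPKM at low nitrogen, against 14.3, 16.1 and 13.6 FPKM at normal nitrogen (log2 difference -0.85 ± 0.20, adjusted p = 0.00806). Low and normal nitrogen did not overlap in either. The rises of newGene_463 (chromosome 11, 36381704 to 36383625; 19.4, 33.1 and 28.8 FPKM at low against 15.7, 11.6 and 11.7 FPKM at normal nitrogen; log2 difference 0.99 ± 0.23, adjusted p = 0.00871) and of newGene_7913 (9.08, 11.6 and 5.37 FPKM at low against 4.66, 3.44 and 3.48 FPKM at normal nitrogen; log2 difference 0.95 ± 0.25, adjusted p = 0.0152) did not overlap either. Both calls ended without low nitrogen replicate 2 (adjusted p = 0.0614 and 0.105) and with the 6 libraries alone (0.0565 and 0.0716), and that of newGene_7913 also without normal nitrogen replicate 2 (0.0578). In Guizhen leaves of day 7, newGene_2461 had 5.30, 4.45 and 5.99 FPKM at low against 10.4, 8.04 and 8.75 FPKM at normal nitrogen. There newGene_463 had 18.7, 23.7 and 22.3 FPKM at low against 16.5, 10.9 and 16.8 FPKM at normal nitrogen. Neither overlapped, whereas newGene_8144 did, and newGene_7913 was near 0.

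At day 1, with the cultivars averaged, low nitrogen hardly moved the members. In root 1 of 564 was called (0.177%, against 0.0734% of all genes, 0.00489% higher and 0.0685% lower). This was newGene_10192 (chromosome 9, 60533002 to 60534962), named because the count is small, with 1.34, 1.36 and 1.10 FPKM at low nitrogen in Guozhen roots and 0 in the other 9 day 1 roots. The call (log2 difference 0.59 ± 0.11, adjusted p = 0.0374 in limma) ended when any 1 of those 9 libraries was left out (adjusted p = 0.0839 to 0.117). The gene fell below the filter without any 1 of the 3 Guozhen low nitrogen roots. The libraries that admit it thus also make the call, and its p supports nothing. Guizhen was at 0 at both nitrogen levels, so the averaged difference comes from Guozhen alone. In leaf 7 of 512 were called (1.37%, against 2.45%), 4 higher (background 1.25%) and 3 lower (1.21%), or 4 higher and 1 lower after scaling. That count was 47 without Guozhen low nitrogen replicate 3 and 18 without Guizhen normal nitrogen replicate 2. It was 3 without Guizhen normal nitrogen replicate 1, and 0 or 1 without Guizhen low nitrogen replicate 2 or 3, Guizhen normal nitrogen replicate 3, Guozhen low nitrogen replicate 1 or 2, or any of the 3 Guozhen normal nitrogen libraries.

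Whether the nitrogen response itself differed between the cultivars was tested as an interaction at day 7. In root 2 of 564 members were called (0.355%, against 0.387% of all genes), newGene_779 and newGene_4373, both named because the count is small. One had a positive difference of responses (background 0.21%) and the other a negative one (0.176%). That count was 8 without Guizhen low nitrogen replicate 3, 9 without Guizhen normal nitrogen replicate 1 and 7 without Guozhen low nitrogen replicate 3. It was 1 without Guizhen low nitrogen replicate 1, Guizhen normal nitrogen replicate 2 or Guozhen low nitrogen replicate 1 or 2, and 0 without Guozhen normal nitrogen replicate 2 or 3. In leaf limma called no member of 512 (0%, as for all genes).

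Some newly assembled genes overlap each other. The labels name a library kit without stating that strand was kept, so reads from overlapping genes on opposite strands cannot be told apart. Of the 724 members, 60 took part in 34 overlapping pairs, 25 on opposite strands and 9 on the same strand, and in 21 pairs 1 member lay wholly inside the other. Across the 48 libraries, the correlation of log2 values within a pair had a median of 0.69, ran from -0.16 to 0.99 and exceeded 0.8 in 13 pairs; these describe libraries that share organ and day, and carry no test. At the top was newGene_10306, which lies wholly inside newGene_10305 on the other strand and averaged 89.9 FPKM in root, against 42.7 FPKM for newGene_10305 (r = 0.99).

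Other strong members had such a partner. For newGene_9481 it was the short newGene_9480 (r = 0.95), with 0.978 to 4.34 FPKM in leaf and at most 0.0603 FPKM in root. For newGene_7080 it was newGene_7083 (chromosome 6, 44615526 to 44623023; r = 0.94), and for newGene_7913 it was newGene_7911 on the same strand (chromosome 7, 52781702 to 52788792; r = 0.93). Like its partner, newGene_7911 was at most 0.638 FPKM in Guizhen roots, against 1.24 to 11.7 FPKM in Guozhen roots. The longest member showed the opposite case, since newGene_6029, inside newGene_6016, did not vary with it (r = -0.09). Which member of a pair the shared reads belong to was not tested.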

How the data were processed

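Libraries of roots and leaves were described by the sample titles and labels. The authors deposited 1 FPKM table covering the 48 libraries. HISAT2 and StringTie are named, per the submitters' processing notes, without versions; genome build and annotation release: not given in the sources used here. FPKM are not counts and depth was not given, so no counting interval is given.

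From the deposited FPKM, log2(FPKM + 1) was computed and group means were modelled in limma 3.58.1 (R 4.3.3, variance trend) over the 24 root, the 24 leaf or all 48 libraries. A gene entered a fit when 3 or more of its libraries reached 1 FPKM. This covered 564 members in root and 512 in leaf, with 368 in both and 16 in neither. P-values were adjusted by Benjamini-Hochberg over all genes tested in each of 13 comparisons, and an adjusted p below 0.05 was called. Differences are on the log2(FPKM + 1) scale with limma's standard error, which understates the change of low genes. Exact permutation was not used: comparing 3 libraries with 3 it gives p-values of 0.1 or more. Positions are those of the table.

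Named members are, in each comparison, at most 2 that rose most and 2 that fell most among called members whose higher side averaged at least 5 FPKM and whose sides did not overlap; also the 5 highest, the 3 longest and 3 shortest, the top 2 of each class seen in 1 organ or cultivar, those next to the limit, the 2 densest 100 kb stretches, overlap partners, and counts of 5 or fewer. The values of newGene_7283 and newGene_667 outside the comparisons that named them, and newGene_4353, were chosen after values were seen. The members, lists and thresholds were chosen with earlier results of these data known. The fits were tested on simulated data in which only genes averaging at least 10 FPKM were changed, so recovery of weaker members was not tested. Python 3.11.15 with matplotlib 3.10.9 drew the figures. Alternatives were a pseudocount of 0.1, no filter, median-of-ratios scaling, a replicate block, each library left out, and a fit on the libraries of the comparison alone.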

Additional observations from a re-analysis of the deposited data

Results flagged for a closer look

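In root at day 7 the test of the cultivar difference of the nitrogen response called 2 members. For newGene_779 (chromosome 12, 5556707 to 5558039) the low nitrogen libraries had 0.0288, 0 and 0.0718 FPKM and the normal nitrogen libraries 0.135, 0.0791 and 0.0875 FPKM in Guizhen. In Guozhen they had 1.38, 0.866 and 1.11 FPKM at low nitrogen and 2.84, 4.35 and 4.43 FPKM at normal nitrogen. The gene was near 0 in every Guizhen root of day 7, and in Guozhen the groups did not overlap. The called difference is therefore the Guozhen fall set against values near 0 in Guizhen. The difference of the responses was 1.10 ± 0.19 on the log2 scale (limma, adjusted p = 0.0267). The call ended without Guizhen low nitrogen replicate 1 (adjusted p = 0.056) or normal nitrogen replicate 2 (0.0752), without Guozhen normal nitrogen replicate 2 (0.0726) or 3 (0.0661), at a pseudocount of 0.1 (0.392), and with the libraries of the comparison alone (0.139).

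For newGene_4373 (chromosome 4, 21544454 to 21564422) Guizhen had 0.390, 0 and 0 FPKM at low nitrogen and 0, 0.231 and 0 FPKM at normal nitrogen. Guozhen had 1.64, 2.38 and 2.09 FPKM at low nitrogen and 0.629, 0.340 and 0.132 FPKM at normal nitrogen. It passed the filter through the 3 Guozhen low nitrogen libraries alone. The same libraries make the difference of the responses, so its p describes them and supports nothing. The difference of the responses was -1.10 ± 0.21 on the log2 scale (limma, adjusted p = 0.0333). This call too ended without Guizhen low nitrogen replicate 2 (adjusted p = 0.0512) or normal nitrogen replicate 2 (0.106), without Guozhen normal nitrogen replicate 2 (0.0769) or 3 (0.071), at a pseudocount of 0.1 (0.208), and with the libraries of the comparison alone (0.158).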

How the results depend on the processing

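Fitted on the libraries of the comparison alone, the counts were 1 in Guizhen roots and 9 in Guizhen leaves of day 7, 7 in Guozhen leaves of day 7, and 0 in root at day 1, leaf at day 1 and for the cultivar difference in root. Scaling gave 37 in Guozhen leaves of day 7, and it turned the majority of calls from higher to lower in Guizhen leaves of day 7 and from lower to higher for the days in leaf. A pseudocount of 0.1 gave 0 in root at day 1, 1 in leaf at day 1 and 0 for the cultivar difference in root, and no filter gave 2 in leaf at day 1 and 9 for that difference. Leaving out 1 library at a time gave 10 to 58 in Guizhen roots, 64 to 87 in Guozhen roots, 8 to 47 in Guizhen leaves and 16 to 63 in Guozhen leaves of day 7, 0 to 1 in root and 0 to 47 in leaf at day 1, and 0 to 9 for the cultivar difference in root. For the cultivars the range was 73 to 87 in root and 89 to 124 in leaf, for the organs 552 to 571, and for the days 252 to 268 in root and 265 to 277 in leaf. No named member changed direction in its comparison, and the causes were not tested.

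In none of the 13 comparisons did every same-numbered pair of libraries correlate above 0.1: 1 of 3 pairs did in Guizhen roots of day 7 (-0.01 to 0.15), 2 of 3 in Guozhen leaves of day 7 (-0.11 to 0.16) and 9 of 24 between root and leaf (-0.08 to 0.25). The labels do not say that these numbers mark a shared plant, tray or day, so they were not taken to pair the libraries. With a replicate block the count in root at day 1 was 0, and no other count moved by over 1.5 times. At 2 FPKM 480 genes meet the limit. With a limit of 0.05 FPKM the class of Guozhen only held 8 and that of root only 37, and at 0.5 FPKM the classes held 22 in Guozhen, 23 in Guizhen, 121 in root and 74 in leaf.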

Other observations

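In 3 members a single library was listed at 0 beside 2 replicates of at least 10 FPKM, named after their values were seen. In Guizhen roots of day 7 at low nitrogen, newGene_3967 (chromosome 4, 1487892 to 1490009) was at 0 in replicate 1, against 173 and 108 FPKM in the others. At normal nitrogen it had 276, 0 and 0.68 FPKM, so the libraries of 1 group disagree more than the groups do. In Guozhen roots of day 7 at low nitrogen, replicate 1 was at 0 for newGene_3808 (chromosome 3, 60801065 to 60803800; 20.7 and 13.1 FPKM in the others) and for newGene_5311 (chromosome 5, 10684946 to 10688065; 14.4 and 11.2 FPKM in the others). In a table without counts a 0 can be a failed estimate, and its part here was not tested.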
